A study of Homo sapiens with 12 samples.

Results

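The genes of the mitochondrial ribosomal proteins were followed across 3 human hepatocellular carcinoma (HCC) cell lines and 4 treatments. Members were the genes whose symbol consists of MRPL or MRPS, a number and at most 1 letter from A to C, which gave 74 of the 11548 genes measured. Of the 74, 48 encode proteins of the large subunit and 25 proteins of the small subunit, and MRPS36, which carries such a name, encodes a component of the oxoglutarate dehydrogenase complex. The role of each member was taken from general knowledge and not from the data. MRPL38, MRPL53 and MRPS24 were not analysed here.

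Hep3B, Huh7 and MHCC97H are established human HCC lines. Each was left untreated or was treated with AZD8055, compound #57 or both, and each line and treatment was sequenced as 1 library, 12 in all. AZD8055, an inhibitor of the mTOR kinase, was used at 100 nM, and compound #57, an allosteric inhibitor of the phosphatase SHP2, at 5 µM in the combination. Its dose as a single drug in the sequenced cells is not given in the sources used here. Cells were exposed for 24 h in MHCC97H and for 48 h in Hep3B and Huh7, and the effect of time cannot be told apart from that of the line. The 3 lines served as the replicates of a treatment. The fit held a term for cell line, so p-values measure how treatment effects spread between these lines, pooled over all 12 libraries.

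Mitochondria carry ribosomes of their own, which translate the few mRNAs of the mitochondrial genome into core subunits of the respiratory chain and of the ATP synthase. Their ribosomal RNAs come from mitochondrial DNA, while all of their proteins are encoded in the nucleus, made in the cytosol and imported. Many of these proteins descend from bacterial ribosomal proteins and others exist only in mitochondria. Hepatocytes are rich in mitochondria, and mTOR signalling is known to control both the transcription and the translation of genes of mitochondrial function.

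To show what lies upstream of genes that moved together, the 200 bases before the transcription start are given for the 3 members with the largest fall under the combination and for MRPS18A, a member that did not pass the test. They come from RefSeq (GRCh38.p14) and run 5′ to 3′ on the strand of the gene. Capitals mark matches, on either strand, to GCGCNTGCG (NRF1), CCGGAAG (ETS factors), AAGATGGCG (YY1), CACGTG (E-box) or TGATGNAA (ATF4). The printed stretch of MRPS34 shares 16 bases with the GENCODE gene.
MRPL12, chr17:81703167-81703366, + strand: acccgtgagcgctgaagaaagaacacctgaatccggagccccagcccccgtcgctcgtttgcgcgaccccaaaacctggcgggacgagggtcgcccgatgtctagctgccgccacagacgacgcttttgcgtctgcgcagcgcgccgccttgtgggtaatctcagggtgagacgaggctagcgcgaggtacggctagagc
MRPL17, chr11:6683341-6683540, - strand: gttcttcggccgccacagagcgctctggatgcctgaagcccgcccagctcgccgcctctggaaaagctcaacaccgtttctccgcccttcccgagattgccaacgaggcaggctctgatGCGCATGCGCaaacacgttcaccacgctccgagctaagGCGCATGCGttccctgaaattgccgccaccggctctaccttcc
MRPS34, chr16:1773135-1773334, - strand: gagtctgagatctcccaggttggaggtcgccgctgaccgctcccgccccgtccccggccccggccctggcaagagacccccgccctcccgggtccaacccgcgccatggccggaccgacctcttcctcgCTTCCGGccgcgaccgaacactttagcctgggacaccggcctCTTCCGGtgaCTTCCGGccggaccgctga
MRPS18A, chr6:43687792-43687991, - strand: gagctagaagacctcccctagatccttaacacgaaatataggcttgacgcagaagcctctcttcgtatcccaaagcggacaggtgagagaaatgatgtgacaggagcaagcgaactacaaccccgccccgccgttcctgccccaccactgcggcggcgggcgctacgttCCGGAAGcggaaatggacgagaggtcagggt

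The stretch before MRPL17 held 3 matches, all to the NRF1 letters and 2 of them overlapping on opposite strands. MRPS34 held 3 matches and MRPS18A 1 match to the ETS letters, and MRPL12 held none. A promoter window of 300 bases, from 250 before to 50 after the start, was available for 65 of the 74 members and for 8711 genes of the table. The ETS letters occurred in 40% of the members' windows and in 20.5% of all windows, and the YY1 letters in 16.9% and 4.32%. For NRF1 the shares were 16.9% and 15.9%, for the E-box 9.23% and 10.5%, and for ATF4 1.54% and 1.52%. The members' windows had a median GC content of 60.3% and all windows one of 65.7%. Of the 33 members with a window that fell under the combination, 15 held the ETS letters, and so did 11 of the 32 that did not pass the test. A match is a description of letters and does not show that a factor binds there.

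The libraries held between 10667343 and 15968317 reads, and the members between 16 and 3741 reads each per library, with none at 0. Levels are given as normalised reads, which means scaled to 10000000 reads per library. The hepatocyte marker ALB, which encodes albumin, lay at 119554 to 402282 in the 4 Hep3B libraries and 23874 to 76438 in Huh7, but at 142 to 732 in MHCC97H. AFP, the fetal counterpart of albumin, lay at 3387 to 9616 in Hep3B, 199705 to 286681 in Huh7 and 41.4 to 78.1 in MHCC97H. The MHCC97H libraries were thus low in both. These are from a list of 11 hepatocyte and HCC markers, all of them lower in MHCC97H than in the other lines. The gap was smaller for HNF4A, at 2077 to 3185 in Hep3B, 3023 to 4319 in Huh7 and 595 to 1650 in MHCC97H. Of the 3 epithelial markers, KRT8 and KRT18 lay at 17543 or more and 10549 or more in all 12 libraries, while EPCAM lay at 3224 to 5256 in Hep3B, 372 to 1073 in Huh7 and 3.51 to 9.12 in MHCC97H. Of the listed markers of other cells, PECAM1 (endothelium) lay at 5.72 to 17.3, 285 to 541 and 4.30 to 55.7, and COL1A1 (fibroblasts) at 28.1 to 158, 9.98 to 23.4 and 92.1 to 888, in Hep3B, MHCC97H and Huh7. COL1A1 was higher in all 9 treated libraries than in the untreated library of its line, and its part in the results was not tested.

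In untreated cells the summed level of the 74 members was 40551 (Hep3B), 38627 (MHCC97H) and 36391 (Huh7), which was 0.406%, 0.386% and 0.364% of all reads. With AZD8055 the sum was 33546 (Hep3B), 30507 (MHCC97H) and 27761 (Huh7), lower than in untreated cells by 17.3% (Hep3B), 21.0% (MHCC97H) and 23.7% (Huh7). With compound #57 it was 30422 (Hep3B), 36851 (MHCC97H) and 31588 (Huh7), lower by 24.98% (Hep3B), 4.60% (MHCC97H) and 13.2% (Huh7). With the combination it was 29290.2 (Hep3B), 29903 (MHCC97H) and 27537 (Huh7), lower by 27.8% (Hep3B), 22.6% (MHCC97H) and 24.3% (Huh7). All 9 treated libraries lay below the untreated library of their line, and the MHCC97H library with compound #57 lay closest to it. The large-subunit sum was 1.68 to 1.72 times the small-subunit sum in the Hep3B and MHCC97H libraries and 1.86 to 2.04 times in the Huh7 libraries. Fewer transcripts per cell and a larger share of reads taken by other genes cannot be told apart in such values.

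**Figure D1:**
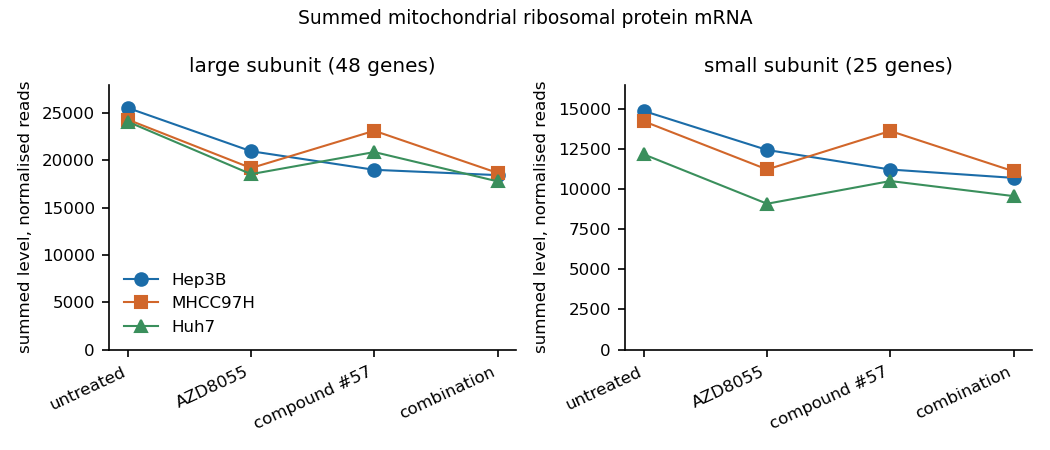
Summed level of the 48 large-subunit and the 25 small-subunit genes in normalised reads (vertical axis, from 0) for the 4 treatments (horizontal axis), with 1 point per library and 1 line per cell line. In Hep3B the library with compound #57 lies near that of the combination, and in MHCC97H it lies near the untreated one.

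Under AZD8055 the members were lower in each line, where the middle member changed by -0.28 (Hep3B), -0.32 (MHCC97H) and -0.40 (Huh7) on the log2 scale and the median gene of the whole table by 0.02, 0.05 and -0.02. Of the 74, 54 were lower in all 3 lines, against 25.7% of all genes, and 0 were higher in all 3 lines, against 28.4%. A fall of at least 1.5-fold within a line was seen for 6 members in Hep3B (4.32% of all genes), 14 in MHCC97H (10.5%) and 13 in Huh7 (10.1%). In the limma fit across the lines, 3 members fell at an adjusted p under 0.05 (0.753% of all genes fell) and 0 rose (2.21% rose), and 39 had an unadjusted p under 0.05 (27.4% of all genes did). Of all calls in this comparison 25.4% were lower, and 45.9% when each library was first centred on its median gene. limma on the reads (voom) also called 3 lower and 0 higher.

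MRPS15, a small-subunit protein that binds the ribosomal RNA, had untreated levels of 760.3 (Hep3B), 509 (MHCC97H) and 673 (Huh7) and levels with AZD8055 of 452 (Hep3B), 298 (MHCC97H) and 336 (Huh7). Every AZD8055 library lay below every untreated library. MRPS15 fell by 0.84 ± 0.15 on the log2 scale (adjusted p = 0.0361), to 55.9% of the untreated level. MRPL18, a large-subunit protein with a bacterial homologue, went from 705, 590.4 and 569.9 to 452, 339.5 and 430.3 in the same order of lines, again without overlap, and fell by 0.61 ± 0.14 on the log2 scale (adjusted p = 0.0452). MRPS34, a mitochondria-specific protein needed for a stable small subunit, went from 690.0, 783 and 628 to 403, 637 and 324 and fell by 0.68 ± 0.15 on the log2 scale (adjusted p = 0.047). Its fall was smaller in MHCC97H (-0.30) than in Hep3B (-0.77) and Huh7 (-0.95), and the groups overlapped through MHCC97H. Among the members lower in all 3 lines, MRPS12, MRPL39, MRPL35 and MRPL19 had, beside MRPS15, the largest smallest change. Their log2 changes were -0.50, -0.56 and -0.55 for MRPS12, the homologue of the protein at the bacterial decoding site, and -0.59, -0.84 and -0.50 for MRPL39, with adjusted p = 0.063 and 0.0593. All 3 calls were lost without Hep3B, without Huh7 or when only these 6 libraries were fitted. In these fits 1, 0 and 2 of all genes were called, against 342 in the main fit. Without MHCC97H 1 call was left (0.944% of all genes were called). Without the cell line term the fit called 0 members and 0 of all genes.

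Under compound #57 the members were lower mainly in Hep3B. The median log2 change was -0.37 (Hep3B), -0.06 (MHCC97H) and -0.15 (Huh7), against 0.01, 0.08 and 0.03 for all genes. In limma 0 members fell (0% of all genes) and 0 rose (0.00866% of all genes), and voom called 0. At an unadjusted p under 0.05 there were 16 members, or 21.6%, against 21.7% of all genes. Without MHCC97H, 3 members (4.05%) were called, below the 6.74% of all genes called in that fit. Of the 74, 35 were lower in all 3 lines (19.7% of all genes) and 2 were higher in all 3 lines (30.6%). A fall of at least 1.5-fold was seen for 18 members in Hep3B (12.6% of all genes), 0 in MHCC97H (2.76%) and 4 in Huh7 (5.57%).

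MRPS23, a mitochondria-specific small-subunit protein, had the smallest adjusted p, with levels of 919 (Hep3B), 863 (MHCC97H) and 597 (Huh7) in untreated cells and 484, 733 and 391 with compound #57. Its log2 change was -0.59 ± 0.14 (adjusted p = 0.0925), with the Hep3B library furthest from its untreated partner. MRPS12, MRPS18B, MRPS18C and MRPL18 were the other members with the largest smallest change among those lower in each line. MRPS12 was the most even, at -0.33 (Hep3B), -0.32 (MHCC97H) and -0.34 (Huh7) (adjusted p = 0.217). MRPL41 and MRPS36 were the pair that was higher in all 3 lines, at 0.30, 0.04 and 0.13 for MRPL41 and 0.38, 0.02 and 0.44 for MRPS36, neither of which passed the test (adjusted p = 0.627 and 0.305). MRPS36 is the member that is no ribosomal protein.

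**Figure D2:**
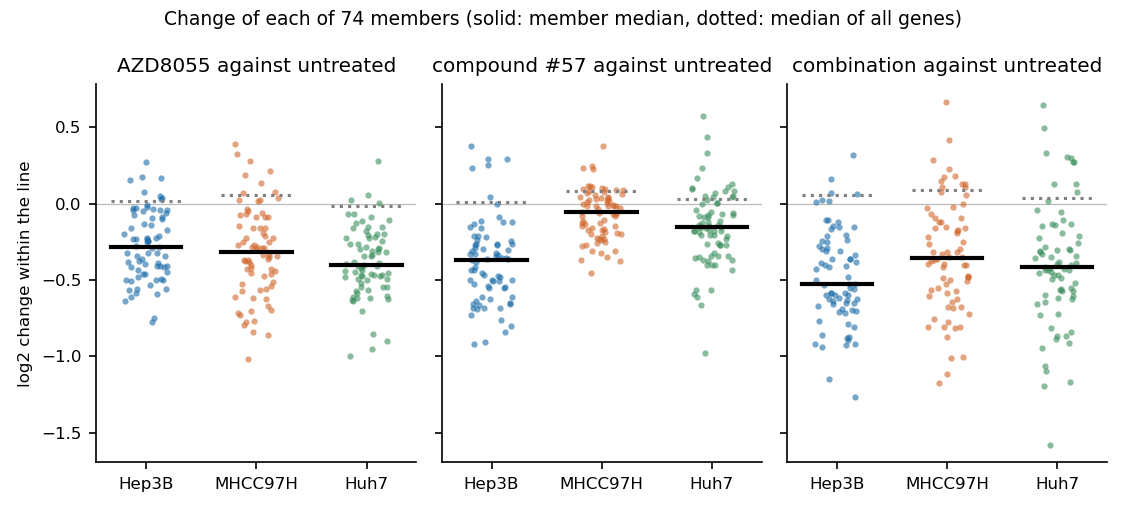
Log2 change of each of the 74 members within a line (vertical axis), for each treatment against untreated (panels) and each cell line (horizontal axis). Solid bars are the members' medians and dotted bars the medians of all 11548 genes, and the members' median lies below the other in all 9 columns.

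Under the combination the summed level was the lowest in each line. Of the 74, 36 fell in limma (15.1% of all genes fell) and 0 rose (20.9% of all genes rose), and 46 of the 48 members with an unadjusted p under 0.05 (47.6% of all genes) were lower. Of all calls 42.0% were lower. With centred libraries 46 members fell and 0 rose, while 36.6% of all genes were called and 52.8% of those calls were lower. The median log2 change was -0.53 (Hep3B), -0.35 (MHCC97H) and -0.42 (Huh7), against 0.06, 0.09 and 0.04 for all genes. Lower in all 3 lines were 56 members (25.6% of all genes) and higher in all 3 were 3 (33.4%). A fall of at least 1.5-fold was seen for 33 members in Hep3B (15.7% of all genes), 18 in MHCC97H (13.7%) and 20 in Huh7 (16.7%), and a rise of that size for 1 member, MRPL10, in MHCC97H (23.7%) and 1, the same gene, in Huh7 (23.5%). Calls were lost in other fits among the members and among all genes alike. Without the cell line term 0 members and 0 of all genes were called, and without Huh7 0 members and 11 of all genes, with 33 members at an unadjusted p under 0.05, all lower. Without Hep3B 16 members were called, of which 15 were lower (15.6% of all genes were called), and without MHCC97H 27 (32.7%). The comparisons of the 3 treatments share the untreated libraries.

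Of the large subunit, 24 of 48 members fell and the median change over the lines was -0.43. MRPL12, which forms the flexible stalk that receives translation factors, had untreated levels of 278 (Hep3B), 299 (MHCC97H) and 113 (Huh7). With the combination these were 115, 149 and 37.0, and the Huh7 value was the lowest of its 12 libraries. MRPL12 fell by 1.28 ± 0.20 on the log2 scale (adjusted p = 0.00314), to 41.0% of the untreated level, the largest change among the members. The 95% Clopper-Pearson interval of its change from the reads alone was -1.57 to -0.98 in Hep3B, -1.27 to -0.75 in MHCC97H and -2.12 to -1.12 in Huh7, where it covers counting error only. With single drugs its log2 changes were -0.56, -0.44 and -0.70 for AZD8055 and -0.76, 0.07 and -0.98 for compound #57 in the order Hep3B, MHCC97H and Huh7. The other stalk proteins did not pass the test: MRPL11, at the base of the stalk, changed by -0.40 ± 0.15 (adjusted p = 0.0538), and MRPL10, to which MRPL12 binds, by 0.39 ± 0.17 (adjusted p = 0.0922).

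Around the exit of the tunnel, through which the nascent chain leaves, 3 of 6 members fell. MRPL17 (ENSG00000158042.9, chr11:6680385-6683340) had levels of 305 (Hep3B), 773 (MHCC97H) and 502 (Huh7) in untreated cells and of 168, 383 and 234 with the combination. It fell by 0.99 ± 0.15 on the log2 scale (adjusted p = 0.00301), with like changes of -0.86, -1.01 and -1.10 in the 3 lines. MRPL22 fell by 0.66 ± 0.15 on the log2 scale (adjusted p = 0.0107). MRPL47 was the third, and MRPL23 and MRPL24 did not pass the test. MRPL45, which holds the ribosome at the inner membrane, lay the other way, at 917, 344 and 463 in untreated cells and 964, 419.6 and 655 with the combination. Each line was higher, and the change of 0.29 ± 0.12 (adjusted p = 0.0873) did not pass the test. Of proteins of the central protuberance, MRPL40 and MRPL48 fell and MRPL46 did not pass the test. MRPS30, another protein of the large subunit, also fell.

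MRPL42, a mitochondria-specific protein, went from 1079.9 (Hep3B), 1259.9 (MHCC97H) and 1663 (Huh7) to 572, 828 and 797, without overlap of the groups, and fell by 0.86 ± 0.13 on the log2 scale (adjusted p = 0.00301). MRPL18 went from 705, 590.4 and 569.9 to 407, 272 and 360.4, again without overlap, and fell by 0.85 ± 0.14 on the log2 scale (adjusted p = 0.00331). Other large-subunit members with large changes were MRPL35 (-0.79 ± 0.16) and MRPL20 (-0.76 ± 0.18), for which adjusted p = 0.00614 and 0.0117. MRPL20 changed most in MHCC97H (-1.17) and least in Huh7 (-0.41). MRPL19, MRPL48, MRPL13, MRPL3 and MRPL14 fell by between 0.60 and 0.65, with adjusted p between 0.00844 and 0.0205.

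Of the small subunit, 12 of 25 members fell and the median change was -0.42. MRPS34 (ENSG00000074071.15, chr16:1771890-1773150) went from 690.0 (Hep3B), 783 (MHCC97H) and 628 (Huh7) to 311, 562 and 274 and fell by 0.94 ± 0.15 on the log2 scale (adjusted p = 0.00336). The 3 combination libraries lay below the 3 untreated ones, and the change in MHCC97H (-0.48) was the smallest of the lines. MRPS12 went from 391, 853 and 247 to 269.7, 498 and 109 and fell by 0.83 ± 0.14 on the log2 scale (adjusted p = 0.00409), most in Huh7. MRPS15 went from 760.3, 509 and 673 to 415, 339.6 and 364 and fell by 0.78 ± 0.15 on the log2 scale (adjusted p = 0.00618), without overlap. MRPS23 fell by 0.74 ± 0.14 on the log2 scale (adjusted p = 0.00496) and MRPS11 fell by 0.70 ± 0.15 on the log2 scale (adjusted p = 0.00896). MRPS18C, MRPS6 and MRPS7, the last of which organises the head of the subunit, fell by 0.64, 0.64 and 0.63 with adjusted p between 0.00581 and 0.0153.

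Of the 45 members with a bacterial homologue, 29 fell, with a median change of -0.49, and of the 28 classed as mitochondria-specific 7 fell, with a median of -0.32. MRPS18A and MRPS18B, neither of which passed the test, are counted among the 28 because no bacterial ribosomal protein takes their place, although they are related to one in sequence. The difference between these groups of genes was not tested. Under AZD8055 the medians were -0.40 and -0.25, and under compound #57 -0.23 and -0.18.

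**Figure D3:**
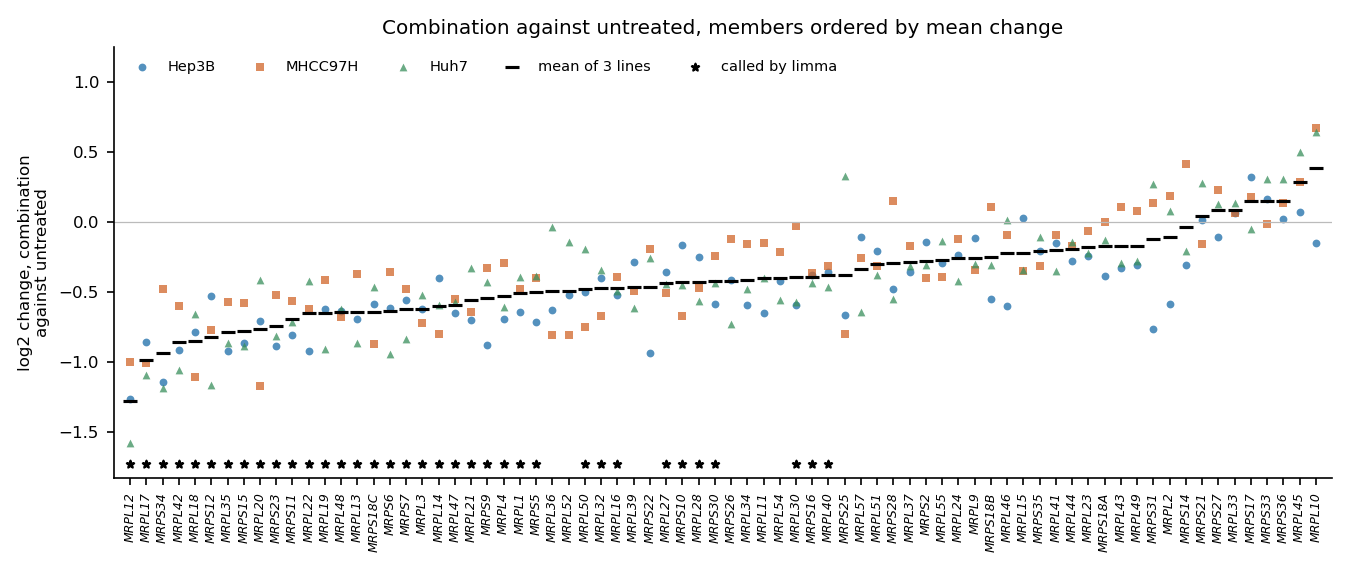
Log2 change under the combination against untreated (vertical axis) for the 74 members ordered by their mean over the lines (horizontal axis), with 1 symbol per cell line, a bar for the mean and a star for the 36 members called by limma. MRPL12 lies lowest and MRPL10 highest, and no member above zero bears a star.

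Against AZD8055 alone, the combination gave a median member change of -0.19 (Hep3B), -0.03 (MHCC97H) and -0.03 (Huh7). In limma 0 members fell or rose (0% of all genes fell), 4 had an unadjusted p under 0.05 (14.5% of all genes) and voom called 0. The median over the lines was -0.0954, and -0.0248 without Hep3B. Lower in all 3 lines were 26 members (16.3% of all genes). MRPL12 was the furthest, at -0.71, -0.56 and -0.88, and did not pass the test (-0.72 ± 0.20, adjusted p = 0.206). Against compound #57 alone the median was -0.08 (Hep3B), -0.29 (MHCC97H) and -0.26 (Huh7), and 38 members were lower in all 3 lines (21.8% of all genes). MRPL17 fell by 0.82 ± 0.15 on the log2 scale (adjusted p = 0.0284) and MRPS34 fell by 0.64 ± 0.15 on the log2 scale (adjusted p = 0.0494), which made 2 of 74 (1.57% of all genes), and MRPL45 was the 1 member that rose (2.62% of all genes), by 0.56 ± 0.12 (adjusted p = 0.0392). MRPL45 lay at 648 (Hep3B), 308 (MHCC97H) and 417 (Huh7) with compound #57 and at 964, 419.6 and 655 with the combination, higher in each line. Of these 3 calls 0 were left without Hep3B or without Huh7 (1 and 0 of all genes were called), and 1 without MHCC97H (2.87% of all genes). When the change under the combination was set against the added changes of AZD8055 and compound #57, 0 members were called in limma (0% of all genes were lower) and in voom, and 2 had an unadjusted p under 0.05 (1.54% of all genes). The members' median there was 0.11, against -0.01 for all genes.

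The 3 MRPS18 genes encode relatives of 1 bacterial protein and sit at different places: MRPS18C takes the place of the bacterial protein, MRPS18B sits elsewhere in the small subunit and MRPS18A in the large subunit. MRPS18C went from 203 (Hep3B), 216 (MHCC97H) and 211 (Huh7) in untreated cells to 135, 117 and 152 with the combination and was called (-0.64 ± 0.16, adjusted p = 0.0153). MRPS18B went from 1169.9, 598 and 629 to 796, 644 and 507, lower in Hep3B and Huh7 and higher in MHCC97H (-0.25 ± 0.16, adjusted p = 0.223). MRPS18A went from 472, 362 and 269 to 361, 361 and 245 and did not pass the test (-0.17 ± 0.15, adjusted p = 0.375). The differences between the 3 genes were not tested.

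Members higher in all 3 lines with the combination were MRPL45, MRPL33 and MRPS36, none of which passed the test. MRPL33, a small protein of the large subunit, changed by 0.08 ± 0.16 (adjusted p = 0.702) and MRPS36 by 0.15 ± 0.15 (adjusted p = 0.447). MRPL10 had levels of 682 (Hep3B), 342 (MHCC97H) and 369 (Huh7) in untreated cells and 615, 545 and 578 with the combination, higher in MHCC97H and Huh7 and lower in Hep3B.

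MRPL46 and MRPS11 were the only members within 1 kb of each other. They are read in opposite directions, and 62 bases lie between their annotated starts (GENCODE 44, hg38, given on the plus strand), which hold none of the 5 motifs.
MRPL46 to MRPS11, chr15:88467391-88467452: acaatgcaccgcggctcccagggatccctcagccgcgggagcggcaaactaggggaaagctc
MRPS11 went from 356 (Hep3B), 412 (MHCC97H) and 358 (Huh7) in untreated cells to 203, 277 and 217 with the combination. MRPL46 went from 97.5, 61.4 and 68.9 to 64.0, 57.4 and 69.7, with changes of -0.60 (Hep3B), -0.10 (MHCC97H) and 0.02 (Huh7), and did not pass the test (adjusted p = 0.401), while MRPS11 fell in each line (-0.81, -0.57 and -0.72). The difference between these neighbours was not tested.

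The remaining genes of the mitochondrial translation system were read beside the members, against the 15.1% of all genes that fell and the 20.9% that rose. Of 6 mitochondrial ribosomal proteins with other names, 5 fell with the combination and the median was -0.53. These were PTCD3 (-0.52 ± 0.11), CHCHD1 (-0.54 ± 0.15), AURKAIP1 (-0.52 ± 0.12), GADD45GIP1 (-0.59 ± 0.14) and ICT1 (-0.67 ± 0.16), the last an older symbol of MRPL58, a release factor built into the large subunit. DAP3 was the one that did not pass the test. Of 13 translation factors 3, or 23.1%, fell (median -0.23), namely the elongation factors TUFM (-0.52 ± 0.11, adjusted p = 0.00898) and GFM1 (-0.68 ± 0.15, adjusted p = 0.00886) and GUF1, a factor acting on stalled ribosomes (-0.64 ± 0.13). Of 29 genes of ribosome assembly 12, or 41.4%, fell and 3, or 10.3%, rose (median -0.26). C1QBP, a matrix protein that binds RNA, fell by 1.23 ± 0.21, SLIRP, which protects mitochondrial mRNAs, fell by 1.16 ± 0.18, and MPV17L2 fell by 1.06 ± 0.19. TFB1M, which methylates the small ribosomal RNA, fell by 0.96 ± 0.30, with -1.85 in Hep3B and -0.22 in MHCC97H. The genes that rose were NOA1, MTERF4 and YBEY, at 0.62 ± 0.16, 0.63 ± 0.15 and 0.95 ± 0.23. Of 20 mitochondrial aminoacyl-tRNA synthetases 3 fell, among them MARS2 (-1.35 ± 0.26), and WARS2 rose (0.68 ± 0.20), with a median of -0.20. The share of synthetases that fell, 15%, was close to that of all genes.

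Of 7 genes listed as acting on mitochondrial DNA, TFAM (-0.83 ± 0.22) and the helicase gene C10orf2 (-0.80 ± 0.21) fell. Of 8 regulators of mitochondrial genes, the coactivators PPARGC1B and PPRC1 fell. PPARGC1B had 100.3, 134 and 98.3 normalised reads in untreated Hep3B, MHCC97H and Huh7 and 5.67, 45.3 and 11.2 with the combination, a change of -2.83 ± 0.42 (adjusted p = 0.00296). Within the lines the change was -3.93 (Hep3B), -1.54 (MHCC97H) and -3.03 (Huh7). The values for Hep3B and Huh7 rest on few reads with the combination, and no counting interval was computed for this gene. NRF1, GABPA, GABPB1 and YY1, whose proteins bind the NRF1, ETS or YY1 letters or are subunits of such a factor, did not pass the test in any comparison. MYC, on the same list, did not pass it either. Its levels in Hep3B, MHCC97H and Huh7 were 1713, 2076 and 817 in untreated cells and 1128, 1766 and 466 with the combination. They were 2129, 2305 and 728 with AZD8055 and 532, 2075 and 303 with compound #57.

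Of 76 nuclear subunits of the respiratory chain and ATP synthase, 25, or 32.9%, fell and 1 rose with the combination (median -0.24), among them ATP5G1 (-1.29 ± 0.20), ATP5G3 (-0.70 ± 0.10), NDUFS6 (-0.85 ± 0.15) and SDHB (-0.51 ± 0.12). ATP5G3, which encodes a copy of the membrane ring subunit, also fell with AZD8055 alone (-0.64 ± 0.10, adjusted p = 0.0304). With compound #57 the median of these 76 was 0.01 and 0 were called. At an unadjusted p under 0.05 were 4 of them (5.26%), against 21.6% of the members and 21.7% of all genes. The members' median with compound #57 was -0.217 with all lines and -0.115 without Hep3B.

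Cytosolic ribosomal proteins, the counterparts of the members outside mitochondria, had medians on the other side of zero where AZD8055 was present. With AZD8055 their 79 genes had a median of 0.18 and 2 rose, with compound #57 a median of -0.34 and 0 called, and with the combination a median of 0.19, with 12 that rose and 2 that fell. The shares that rose, 2.53% with AZD8055 and 15.2% with the combination, were near and below those of all genes (2.21% and 20.9%). In MHCC97H their medians with AZD8055 (0.03) and with the combination (0.04) lay below those of all genes there (0.05 and 0.09), so the direction flips in that line when libraries are centred. Against compound #57 alone, 40 of the 79, or 50.6%, rose with the combination (2.62% of all genes). The members' sum was 11.8%, 12.9% and 11.6% of the cytosolic sum in untreated Hep3B, MHCC97H and Huh7. It was 8.05%, 9.69% and 7.55% with AZD8055, 12.9%, 14.5% and 12.4% with compound #57 and 7.36%, 9.25% and 7.06% with the combination. All 6 libraries with AZD8055 lay below all 6 without it.

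The 15 genes encoded in mitochondria had a median of -0.39 with the combination, but the lines differed, with medians of -1.37 (Hep3B), 0.13 (MHCC97H) and -0.07 (Huh7). Their sum in Hep3B was 417027 in untreated cells and 187042 with the combination. MT-ND6 was the 1 gene called, at -1.78 ± 0.29, which made 6.67% of the 15 (15.1% of all genes fell). The libraries were made from polyadenylated RNA, in which mitochondrial transcripts with their short tails are caught unevenly.

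Levels between genes were compared per kilobase of the canonical GENCODE 44 transcript, as normalised reads per kilobase, averaged over all 12 libraries. The median member had 289.6, and the range ran from 38.0 to 1094. Highest were MRPL51, MRPL24 (775), MRPS35 (728), MRPL11 (721) and MRPL3 (685). Lowest were MRPS28, MRPS17 (54.5), MRPL42 (64.7), MRPL46 (68.9) and MRPS31 (71.4). The value of MRPL42 rests on an annotated transcript of 15557 bases and had 1006 normalised reads before division by length. Pseudogenes named after the gene are annotated for 35 of the 74 members, and how the authors' counting split reads between such copies is not given in the sources used here.

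The lines also differed from each other. For MHCC97H against Hep3B, all 4 libraries lay above for 11 members (22.8% of all genes) and below for 20 (29.7%). For MHCC97H against Huh7 these numbers were 21 (26.6%) and 13 (29%), and for Hep3B against Huh7 19 (22%) and 6 (17%). The shares of members, 41.9%, 45.9% and 33.8% for the 3 pairs, were below those of all genes, which were 52.4%, 55.5% and 39.1%.

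MRPL11, at the base of the stalk, differed most. Its levels in untreated, AZD8055, compound #57 and combination libraries were 1536, 1150.1, 987 and 974 in Hep3B, 350.1, 286, 374 and 315 in MHCC97H and 2343, 1668, 2125 and 1770.0 in Huh7. MHCC97H was lowest in every library, 5.92-fold below Huh7 and 3.46-fold below Hep3B in the mean of the log2 values. MRPL24, near the exit of the tunnel, was higher in MHCC97H, at 1304, 1166, 1323 and 1199, than in Hep3B, at 388, 432, 328 and 329.6 (3.39-fold). MRPL15 was 3.81-fold and MRPS12 3.69-fold higher in MHCC97H than in Huh7. MRPS21 was highest in Hep3B, 3.36-fold above MHCC97H and 2.70-fold above Huh7.
For Hep3B against Huh7 the largest differences were those of MRPL36, at 267, 229, 186 and 172 in Hep3B and 60.1, 43.2, 89.9 and 58.5 in Huh7 (3.42-fold), and of MRPL12 (2.76-fold). Since MHCC97H was exposed for another time than the other two, its treated libraries differ in time as well as in line.

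**Figure D4:**
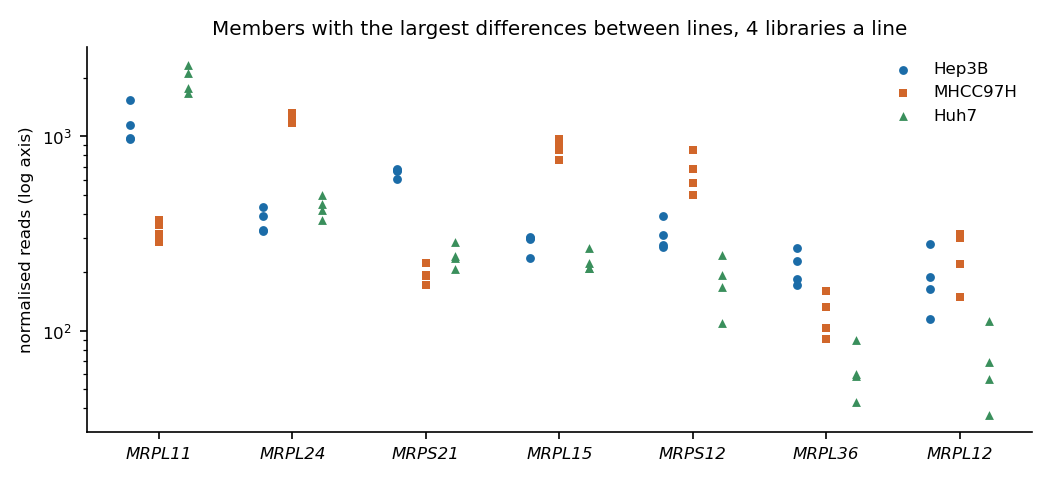
Level in normalised reads (vertical log axis) of the 7 members with the largest differences between lines (horizontal axis), with 4 points per cell line, 1 for each treatment. MRPL11 is lowest in MHCC97H, MRPL24, MRPL15 and MRPS12 are highest there, and MRPS21 and MRPL36 are highest in Hep3B.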

How the data were processed

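RNA of Hep3B, Huh7 and MHCC97H cells was sequenced by the authors from stranded libraries of polyadenylated RNA, with hg38 named in the submitters' processing notes. The aligner, the counting and the normalization are not given in the sources used here. The deposited values were log2 values per gene and library. All of them gave whole reads (within 0.001) once 0.001 was taken off, the log2 was undone, 1 was subtracted and libraries were put on a scale of 10000000 reads, so reads and library totals were recovered. Of the 11548 genes 18 bore spreadsheet dates as names, which could not be read as symbols. The members and lists were chosen with earlier results of these data known.

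limma 3.58.1 (lmFit, eBayes with trend, R 4.3.3) was fitted to all 12 libraries on the log2 scale, with a term for treatment and one for cell line, which left 6 residual degrees of freedom. P-values were adjusted by Benjamini-Hochberg over all genes and called under 0.05, and errors of log2 changes are limma's standard errors. The replicate number stands for the cell line, which pairs the libraries. Within a line, differences of 1 library against 1 had no test and were given 95% Clopper-Pearson intervals for counting error. Members were named where limma called them (the 20 with the largest change per comparison), where the smallest change over the 3 lines was largest (5 per direction), for the MRPS18 genes, for the 5 highest and 5 lowest per kilobase and for the 3 largest line differences per pair; other members and the neighbouring pair were named by role or position after their values were seen, as was MRPL10. Alternatives were 10 added to the linear values, the 75% of genes with the highest mean, centred libraries, voom on the reads, no cell line term, each line left out and only the libraries compared. The fit was tested on simulated data in which the changed genes had the same treatment effect in all 3 lines. Such data do not test the fit where treatment effects differ between lines. Figures were drawn with matplotlib 3.10.9, and tables were made in Python 3.11.15 (pandas 2.3.3, numpy 2.4.6, scipy 1.17.1).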

Additional observations from a re-analysis of the deposited data

Results flagged for a closer look

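Some members changed in opposite directions in a pair of lines, with both counting intervals away from zero. Each rests on 1 library per line and treatment, and the difference between the lines was not tested. The gap between the log2 changes is given as the line that was higher minus the line that was lower. With AZD8055, MRPL2 was at 0.32 in MHCC97H and -0.25 in Hep3B, a gap of 0.57. With compound #57, MRPL36 was at 0.57 in Huh7 and -0.52 in Hep3B, a gap of 1.10, and MRPS14 at 0.38 in MHCC97H and -0.36 in Hep3B, a gap of 0.74. With the combination, MRPS14 was at 0.42 in MHCC97H and -0.31 in Hep3B, a gap of 0.73. MRPS25 was at 0.33 in Huh7 with the combination, -0.67 in Hep3B and -0.80 in MHCC97H, with gaps of 0.998 to Hep3B and 1.13 to MHCC97H. MRPL10 was at 0.67 in MHCC97H, 0.64 in Huh7 and -0.15 in Hep3B, with gaps of 0.819 and 0.795. Of the 3 lines, Hep3B was the lower one in 7 of these 8 pairs.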

How the results depend on the processing

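Every result rests on 1 library per line and treatment, exposure time and line are confounded, and counting error limits members with few reads, the lowest of which had 16. The fit needs the pairing by cell line, the replicate block: without it 0 members were called with AZD8055, with the combination against untreated and with the combination against compound #57, where 3, 36 and 3 were called with it. Leaving out 1 line in turn gave 0 to 1 member with AZD8055, 0 to 3 with compound #57 (0 with all lines, and the 3 without MHCC97H were 4.05% of members, against 6.74% of all genes), 0 to 27 with the combination against untreated and 0 to 1 against compound #57. Fitting only the libraries compared gave 0, 16 and 1 for AZD8055, the combination against untreated and the combination against compound #57. Of all genes, 0.0173%, 16.4% and 2.29% were called in these fits. Centring each library on its median gene gave 8 members with AZD8055. In that fit 4.10% of all genes were called, against 2.96% without centring, and 45.9% of those calls were lower. With 10 added to the linear values, with the 75% of genes with the highest mean (68 members tested) and with voom the counts of members called stayed within 1.5 times. With the untreated and compound #57 libraries alone, 49 members did not overlap between MHCC97H and Hep3B, 62 between MHCC97H and Huh7 and 42 between Hep3B and Huh7, against 31, 34 and 25 with all libraries. These were 66.2%, 83.8% and 56.8% of the members, where 74.8%, 81.2% and 64.4% of all genes did not overlap. The members' medians kept their sign and moved by less than the SD between lines under each alternative, but without Hep3B the median went from -0.217 to -0.115 with compound #57 and from -0.0954 to -0.0248 for the combination against AZD8055. Of 26 results for single members past the threshold, 26 stayed so under 10 added, the 75% filter, centring and voom. Without the pairing or without Huh7 26 were lost, without Hep3B 12, without MHCC97H 6 and with only the libraries compared 10. The direction of these 26 held throughout. All 36 members called with the combination against untreated stayed so under 10 added, the 75% filter and centring, and 35 with voom. Of the 36, 24 were kept without MHCC97H, 16 with only the libraries compared and 15 without Hep3B. Without the pairing or without Huh7, 0 were kept. Over all genes, 342 were called with AZD8055, 1 with compound #57 and 4154 with the combination, and 0 in each without the pairing. Without Huh7 these were 0, 0 and 11, and voom called 90 with compound #57.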
